A study of Mus musculus with 3 samples.

Results

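The miR-181 family was examined in sorted Müller glia (MG), the main glia of the retina, in 3 samples: wild type glia, MG after light damage (LD) and MG without Dicer (Dicer-cKO). The family members were taken by their miRBase mature identifiers, which stand for the 5p arms of miR-181a (MIMAT0000210), miR-181b (MIMAT0000673), miR-181c (MIMAT0000674) and miR-181d (MIMAT0004324). Of these 4, miR-181a, miR-181b and miR-181c were found among the 602 miRNAs of the table, and miR-181d was not analysed here. All mice carried Rlbp1-CreER, which drives recombination in MG, and a tdTomato reporter that labels the recombined cells for sorting. All received tamoxifen at 75 mg/kg, on 3 consecutive days per the labels and on 4 per the paper's methods. The age at tamoxifen, adults of 2 to 3 months, is from those methods and was not given by sample. Wild type MG came from 40 undamaged retinas. LD glia came from 44 retinas, 7 days after 8 h of bright light. These mice were crossed to an albino Swiss Webster strain that carries the leucine variant of RPE65. The paper describes this variant as a modifier of how susceptible mice are to light damage. Dicer-cKO glia came from 26 retinas of Dicer f/f mice, 1 month after deletion. Each condition was 1 pooled sample, so no test between conditions was possible, and the strain cross of the LD sample cannot be told apart from LD. The wild type and Dicer-cKO data had been published earlier by the same group, and the sources used here do not say which of the 3 samples were run together. Intervals in parentheses are 95% intervals for counting error only, from formulas applied to the counts left after background subtraction. They leave out the counting error of the background, which matters most for the low counts of miR-181b and miR-181c. The other miRNAs carry no names in the table, so the sorted cell type was not checked against marker miRNAs.

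A miRNA guides the Argonaute protein to mRNAs that pair with its seed, bases 2 to 8, and lowers their translation and stability. The 5p strands of the family are the ones mainly loaded, and miR-181a is widely known from lymphocyte development and from the retina and brain. Mature miRNAs are cut from a hairpin by Dicer, so removal of Dicer ends new supply and leaves what was made before to decay.

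The mature 5p sequences are shown because the whole family shares 1 seed, given in capitals, and because some members differ by so little that their counts need care. They were taken from RefSeq (GRCm38.p6), 5′ to 3′.
miR-181a-5p: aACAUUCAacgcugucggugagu
miR-181b-5p: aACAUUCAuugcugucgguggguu
miR-181c-5p: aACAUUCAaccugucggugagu
miR-181d-5p: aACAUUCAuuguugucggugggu
Of the 1679 mouse mature miRNA names in the RefSeq table, these 4 (0.238%) were the only ones with this seed. miR-181a and miR-181c aligned with 0 substitutions and 1 gap, a base of miR-181a at position 11 that miR-181c lacks. miR-181b differed from miR-181a by 3 substitutions (A9U, C10U and A21G, counted from the 5′ end of miR-181a) and 1 further base. miR-181d differed from miR-181b by 1 substitution and 1 gap. How far one member's probe also tagged another was not tested.

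The family is encoded by 6 hairpins in 3 pairs (GRCm38.p6). On chromosome 1, Mir181a-1 (chr1:137966455-137966541) and Mir181b-1 (chr1:137966639-137966718) lie 97 bases apart and overlap no other gene of the RefSeq table. On chromosome 2, Mir181a-2 (chr2:38852735-38852810) and Mir181b-2 (chr2:38853830-38853918) are 1019 bases apart, within the spans of Nr6a1, which encodes a nuclear receptor, and of the lncRNA Nr6a1os. On chromosome 8, Mir181d (chr8:84178716-84178787) and Mir181c (chr8:84178873-84178961) lie 85 bases apart, outside any other gene. Exons and introns were not assigned here. Both Mir181a hairpins give the same mature miR-181a-5p and both Mir181b hairpins the same miR-181b-5p, so the counts do not separate the loci. The 3p arms do differ between the loci, as a comparison of the arms of the Mir181a hairpins shows.
miR-181a-1-3p: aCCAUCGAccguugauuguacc
miR-181a-2-3p: aCCACCGAccguugacuguacc
The capitals again mark bases 2 to 8. None of the 6 sequences of 3p arms was matched to a row, because the RefSeq table gives no miRBase mature identifiers.

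miR-181a was by far the most abundant member in all 3 samples. Its deposited normalized count, a number of tagged molecules after background subtraction and scaling to housekeeping mRNAs, was 48829 in wild type glia, 19965 after LD and 8300 in Dicer-cKO glia. Among the 602 miRNAs it ranked 4 in wild type glia, 4 after LD and 7 in Dicer-cKO glia. miR-181c had 528 normalized counts in wild type glia, 184 after LD and 250 in Dicer-cKO glia, and ranked 57, 76 and 59, respectively. miR-181b had 94, 25 and 29 normalized counts in the same order and ranked 111, 155 and 176. In every sample the order was therefore miR-181a, miR-181c and miR-181b, and the counting intervals of neighbours in that order did not overlap. The efficiency of tagging differs between probes, so these are orders of counts and not of molecules in the cells. miR-181a made up 98.7% (98.6 to 98.8) of the summed counts of the 3 members in wild type glia, 99.0% (98.7 to 99.2) after LD and 96.7% (95.9 to 97.5) in Dicer-cKO glia.

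Not all of these counts stood clear of the control rows. Before scaling, the counts of all miRNAs together came to 678722 in wild type glia, 230232 after LD and 44258 in Dicer-cKO glia, and 1 count was worth 1.15, 2.04 and 4.42 normalized counts. The table also holds 14 ERCC rows, the platform's positive and negative controls, of which the paper's methods name 6 as positive. The highest of the 8 lower rows, which match the number of negative controls, was at 23.4 counts in wild type glia, 31.5 after LD and 38.6 in Dicer-cKO glia, after the same background subtraction. This limit rests on 1 row: the second highest was at 18.4, 5.5 and 1 counts, respectively, and 1 of the 8 rows was above 1 count in Dicer-cKO glia, compared with 2 after LD and 4 in wild type glia. miR-181a lay far above it, with 42278, 9810 and 1878 counts before scaling. miR-181c had 457, 90.4 and 56.6 counts before scaling, 19.6, 2.87 and 1.46 times that row. miR-181b had 81.4 counts in wild type glia, 3.48 times that row, but 12.3 after LD and 6.56 in Dicer-cKO glia, below it though above the second highest row. The ratios of miR-181b are therefore given as values only.

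**Figure D1:**
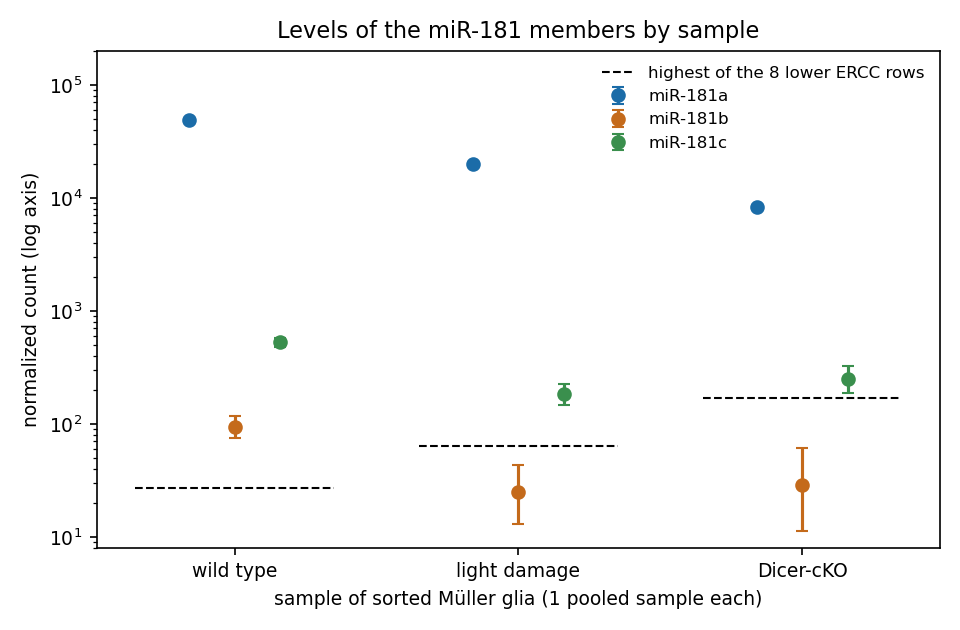
Normalized counts (log axis) of the 3 members in each sample, with error bars for 95% counting intervals, which are smaller than the symbol for miR-181a. The dashed lines mark the highest of the 8 lower ERCC rows after multiplication by the factor of the sample: 27.0 in wild type glia, 64.1 after LD and 171 in Dicer-cKO glia. miR-181b lies below the line in the latter 2 samples and miR-181c close above it in Dicer-cKO glia.

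After LD all 3 members had lower normalized counts than in wild type glia in the authors' scaling, a direction that turned for miR-181a under 1 of 11 other scalings. Of the 104 miRNAs whose mean count reached 100, 73 (70.2%) were lower. miR-181a declined by 59.1% (58.2 to 60.0) and miR-181c by 65.2% (56.2 to 72.5), with the interval of miR-181a inside that of miR-181c. The deposited value of miR-181b was 73.4% below wild type. miR-181a and miR-181c, the members above the control row, were thus at least 2-fold lower, which 39.4% of the 104 miRNAs also were, but under 6 of 11 other scalings for miR-181a and 4 for miR-181c the ratio stayed above 0.5. The value of miR-181b, from counts below that row, was 0.561 of wild type when 20 counts were added back to each sample before scaling. miR-181a and miR-181c belonged to those 104, and miR-181b with its lower mean did not. The median change of the 104 was -0.70 on the log2 scale (pseudocount 1), compared with -1.29 for miR-181a, -1.52 for miR-181c and -1.87 for miR-181b. A lower change than that of miR-181a was found for 33 of the 103 other miRNAs, and a lower one than that of miR-181c for 25. Among the miRNAs with a mean of 10 or more, 53.1% had a lower change than miR-181a.

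In Dicer-cKO glia the members were again lower than in wild type glia in the authors' scaling, but to different degrees, and under 2 of 11 other scalings miR-181b and miR-181c were higher. Of the 104 miRNAs, 79 (76.0%) were lower. miR-181a declined by 83.0% (82.2 to 83.8) and miR-181c by 52.7% (37.5 to 64.7), with intervals that did not overlap. This difference was gone when the highest of the 8 lower ERCC rows of each sample was subtracted before scaling, an alternative chosen after seeing the data: miR-181a was then at 0.167 and miR-181c at 0.158 of wild type. With 20 counts subtracted instead, they were at 0.168 and 0.320. The value of miR-181b was 69.1% below wild type, but at 1.003 of it when 20 counts were added back to each sample before scaling. miR-181a was at least 2-fold lower, except under 2 of 11 other scalings (0.681 and 0.700 with the total counts). So were 60.6% of the 104 miRNAs and 30.4% of all 602. The latter share is limited by rows at the lowest value, 260 in wild type glia (value 1) and 359 in Dicer-cKO glia (value 4). A row at the lowest value in both samples could not come out lower. The interval of miR-181c, at 0.473 (0.353 to 0.625) of wild type, reached past 2-fold. The median log2 change of the 104 was -1.36. miR-181a, at -2.56, was on the lower side, with 18 of the 103 others lower still, whereas miR-181c, at -1.08, was above the median, with 61 of 103 others lower. With the ERCC row subtracted from all miRNAs (counts below 1 set to 1, which held for 37 of the 104), both members were below a median of -2.27, miR-181a at -2.59 with 48 others lower and miR-181c at -2.64 with 46. Both comparisons use the same wild type sample. With samples set to the same total miRNA count, miR-181c was at 1.90-fold the wild type level and miR-181b at 1.24-fold.

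**Figure D2:**
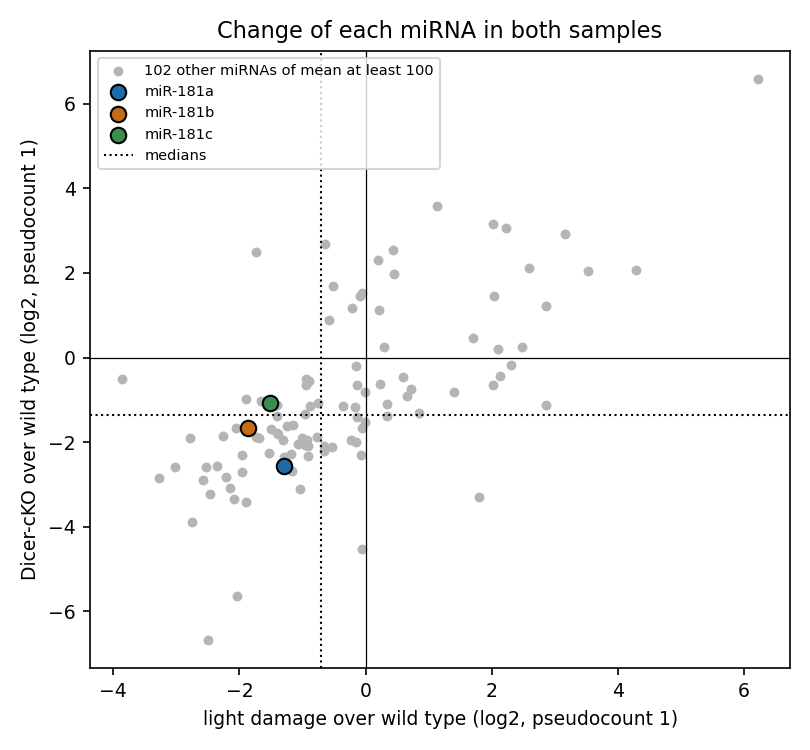
Log2 change (pseudocount 1) after LD (horizontal) and in Dicer-cKO glia (vertical) of the 3 members and the 102 other miRNAs whose mean count reached 100. Dotted lines mark the medians of the 104 miRNAs, -0.70 and -1.36. All 3 members lie left of the vertical dotted line. miR-181c, whose Dicer-cKO count was near the controls, is the 1 member above the horizontal dotted line. The counts of miR-181b after LD and in Dicer-cKO glia were below the highest of the 8 lower ERCC rows, so its place is not settled.

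Compared directly, miR-181a was 2.41-fold (2.29 to 2.53) higher after LD than in Dicer-cKO glia. At least 2-fold higher counts were found for 41.3% of the 104 miRNAs in this comparison, whose median log2 difference was 0.73. That of miR-181a, 1.27, was above this median, with 71 of the 103 others lower, but with the ERCC row subtracted from all miRNAs (38 of the 104 then had a count set to 1) it was 1.29 against a median of 1.59, with 43 of 103 lower. The 2-fold difference of miR-181a did not hold under 4 of 11 other scalings, where the ratio was 1.004 with the same total count, 1.502 with that total less its most abundant LD row, 1.53 with the geometric mean of 100 miRNAs and 1.33 with Rpl19 alone. For miR-181c the LD level was at a ratio to Dicer-cKO of 0.736 (0.522 to 1.05), and its direction was not settled. It lay below 1 under 7 of 11 other scalings, which spread from 0.307 to 5.04, and it was 1.51 with the ERCC row subtracted. The counts of miR-181b gave a ratio of 0.862.

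A ratio of 2 members within a sample does not depend on how the sample was scaled. The count of miR-181c was 1.08% (0.984 to 1.19) of that of miR-181a in wild type glia and 0.922% (0.741 to 1.13) after LD. In Dicer-cKO glia it was 3.01% (2.27 to 3.92), and this interval lay above both others. From wild type to LD the ratio changed by a factor of 0.852 (0.669 to 1.07), which is within counting error. The factor was 0.695 (0.529 to 0.893), an interval below 1, when 20 further counts were subtracted before scaling. With 20 counts added back instead, this ratio changed by a factor of 0.996 (0.798 to 1.22), within counting error. From wild type to Dicer-cKO glia it rose 2.79-fold (2.09 to 3.72). This higher share of miR-181c in Dicer-cKO glia rested on counts close to the highest control row. The rise was 1.90-fold (1.33 to 2.71) with 20 further counts subtracted before scaling and 3.58-fold (2.78 to 4.61) with 20 counts added back. When the ERCC row was subtracted from both members, the ratio was 1.03% in wild type glia, 0.602% after LD and 0.975% in Dicer-cKO glia, and the factor between wild type and Dicer-cKO glia became 0.950 (0.558 to 1.53) and that between wild type and LD 0.587 (0.439 to 0.773). The count of miR-181b was 0.193% (0.153 to 0.239) of that of miR-181a in wild type glia. The corresponding values of 0.125% after LD and 0.349% in Dicer-cKO glia come from counts below that row. With 20 counts added back to each member they were 0.240% in wild type glia, 0.328% after LD and 1.40% in Dicer-cKO glia. The factor against wild type thereby turned from 0.650 to 1.37 after LD and went from 1.81 to 5.84 in Dicer-cKO glia.

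**Figure D3:**
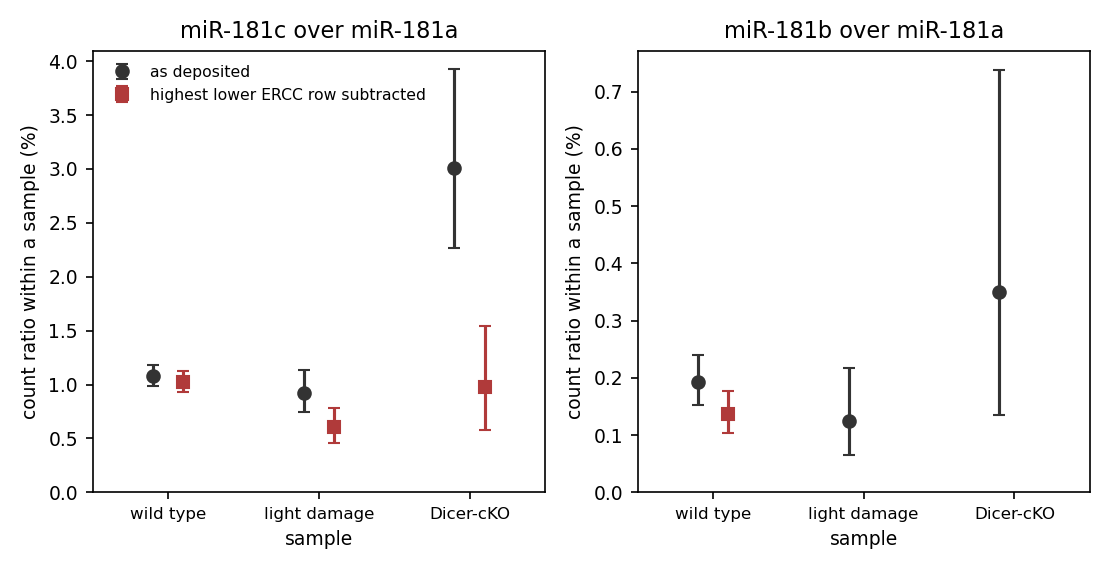
Count of miR-181c (left) and miR-181b (right) as a percent of the miR-181a count of the same sample, with 95% counting intervals. Black circles use the deposited counts and red squares those after subtraction of the highest of the 8 lower ERCC rows. The value of miR-181c in Dicer-cKO glia, 3.01%, is at 0.975% after the subtraction, and no red square can be drawn for miR-181b after LD or in Dicer-cKO glia.

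The place of miR-181a in the whole miRNA pool was also independent of scaling. It accounted for 6.23% (6.17 to 6.29) of all miRNA counts in wild type glia, 4.26% (4.18 to 4.34) after LD and 4.24% (4.06 to 4.43) in Dicer-cKO glia. The share was lower in both conditions than in wild type glia, and the intervals of LD and Dicer-cKO glia overlapped. A single row, the most abundant one after LD, took 36.9% of the LD counts, compared with 3.05% in wild type glia and 5.61% in Dicer-cKO glia. Without this row miR-181a made up 6.43% of the remaining counts in wild type glia, 6.75% after LD and 4.49% in Dicer-cKO glia, so that the share after LD was no longer lower. miR-181c accounted for 0.0674% (0.0613 to 0.0738) of all counts in wild type glia, 0.0393% (0.0316 to 0.0482) after LD and 0.128% (0.0967 to 0.166) in Dicer-cKO glia. Without the most abundant LD row its share was 0.0695% in wild type glia, 0.0622% after LD and 0.135% in Dicer-cKO glia. The higher share in Dicer-cKO glia depended on the background: with the ERCC row subtracted from all miRNAs (counts below 1 set to 1), miR-181c accounted for 0.0645% (0.0586 to 0.0709) in wild type glia, 0.0261% (0.0199 to 0.0337) after LD and 0.0450% (0.0267 to 0.0712) in Dicer-cKO glia. The Dicer-cKO share was then below that of wild type glia, with overlapping intervals. The shares of miR-181a were 6.29%, 4.34% and 4.62% in this setting.

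The size of the declines, and in part their direction, followed the reference used for scaling. Setting samples to the same total, for example, shifted the log2 change of every miRNA by 0.74 after LD and by 2.002 in Dicer-cKO glia. The distance of a member from the median of the 104 miRNAs is free of such a shift, apart from the pseudocount. It was -0.59 after LD and -1.19 in Dicer-cKO glia for miR-181a, and -0.81 and 0.29 for miR-181c. It does depend on the background: with the ERCC row subtracted the distance in Dicer-cKO glia was -0.31 for miR-181a and -0.37 for miR-181c, and after LD it was -0.33 and -1.09. The authors' reference was the geometric mean of 4 housekeeping mRNAs, which did not move in parallel: Gapdh, a glycolytic enzyme, went from 798.5 normalized counts in wild type glia to 379.57 after LD, and Rpl19, a ribosomal protein, from 741.91 to 1268.97. Over 11 other scalings miR-181a was lower in Dicer-cKO glia than in wild type glia in 11, with ratios from 0.0313 to 0.700. The lowest, 0.0444, 0.0325 and 0.0313, came from the counts before scaling, the nmiR rows and the ERCC rows. The counts before scaling are not corrected for the lower total of Dicer-cKO glia. After LD miR-181a was lower in 10 of the 11, with ratios from 0.205 to 1.05. The exception was the same total count without the most abundant LD row. With Gapdh as the only reference the ratio after LD was 0.860, and with Rpl19 it was 0.239. The LD to Dicer-cKO ratio for miR-181a was above 1 in all 11, but it was 1.004 with the same total miRNA count. miR-181c was lower after LD in 11 of the 11 scalings and in Dicer-cKO glia in 9, the exceptions being both scalings to the total count. Under the geometric mean of the 100 most abundant miRNAs and the median of ratios, miR-181c in Dicer-cKO glia was at 0.974 and 0.920 of the wild type level. The distance between the members in a comparison is fixed under any scaling, but not under the ERCC subtraction, with which miR-181a and miR-181c in Dicer-cKO glia were at 0.167 and 0.158.

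**Figure D4:**
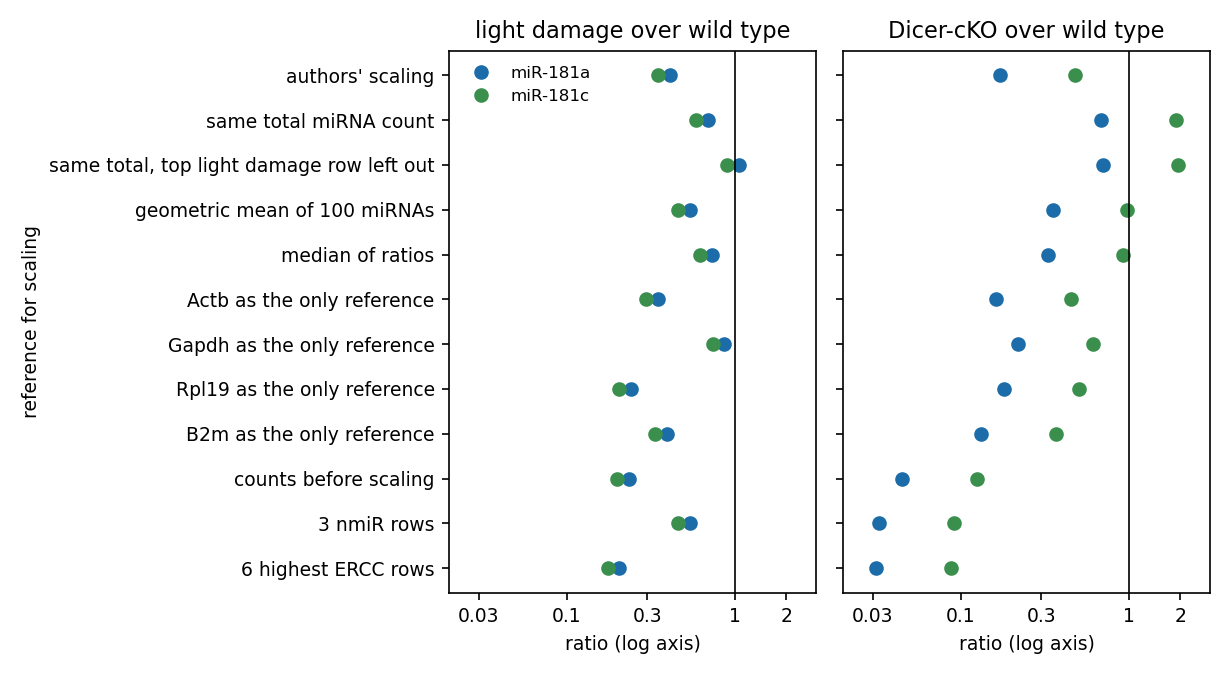
Ratio to wild type glia (log axis) of miR-181a (blue) and miR-181c (green) after LD (left) and in Dicer-cKO glia (right) under the authors' scaling and 11 others. Every scaling moves both members of a sample by the same factor, and their place against the line at 1 differs between scalings: in the left panel 1 point of miR-181a, at 1.05, is right of it, and in the right panel miR-181c reaches 1.95.

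The miRNAs most like each member in pattern were sought among those whose mean count reached 1000, by the distance between the pairs of log2 changes against wild type in the 2 other samples. The nearest of 36 candidates to miR-181a was MIMAT0000515 at a distance of 0.19, with 4676 counts in wild type glia, 1910 after LD and 909 in Dicer-cKO glia. Its declines were 59.2% after LD and 80.6% in Dicer-cKO glia. The other two of the 3 nearest lay at 0.60 and 0.61. The nearest of 37 candidates to miR-181c was MIMAT0000527 at 0.11, with 7260, 2732 and 3358 counts and declines of 62.4% and 53.7%. This match rests on the deposited Dicer-cKO count of miR-181c, since its log2 change there was -2.64 with the ERCC row subtracted. With 1 sample per condition, the distances rest on 2 differences each that share the wild type sample.

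Levels in wild type glia gave a further frame. The miRNAs next above and next below miR-181a by wild type count had 75416 and 26178 counts and declined in both conditions, to 38870 and 9888 counts after LD and to 18100 and 9984 in Dicer-cKO glia. miR-181a had a higher count than the latter in wild type glia and after LD, but a lower one in Dicer-cKO glia. The 33 other miRNAs within 2-fold of the wild type count of miR-181c had a median ratio to wild type of 0.473 after LD and 0.289 in Dicer-cKO glia, and spread from 0.101 to 4.40 and from 0.00786 to 12.0, respectively. In this set 11 miRNAs had a lower ratio than miR-181c after LD and 21 in Dicer-cKO glia, the latter again from the deposited ratio of 0.473. Within 2-fold of miR-181b there were 69 others, of which 13 were at the lowest value of the table after LD and 23 in Dicer-cKO glia.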

How the data were processed

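Sorts of MG were pooled into 1 sample per condition and counted on the NanoString nCounter platform. The authors deposited 626 rows of signal values. These are counts of tagged molecules that were corrected for background and scaled in nSolver 4.0. As references the paper names 6 positive controls, 8 negative ones and the 4 housekeeping mRNAs. No genome was involved. The scaling factor of each sample was read from the steps between the values of housekeeping mRNAs and nmiR rows. Counts before scaling are the values divided by it, and rows other than those used for the factor were checked for whole counts with the decimals that background subtraction left, within 0.51 normalized counts. All 225 miRNAs above the lowest value passed in Dicer-cKO glia, where the window covers 23.1% of the distance between counts; it covers 50.1% after LD and 88.3% in wild type glia, where the check has little power. How much background was subtracted is not known. Intervals of ratios are Clopper-Pearson intervals for what the first count contributes to both together. They were checked on simulated Poisson counts, with at least 100 expected in both samples and no background subtracted. All ratios of miR-181b and miR-181c include a count below 100, so the check does not cover them. Ratios of ratios have conditional intervals of the odds ratio of rounded counts. PCR is not part of the assay. Intervals cover the counting error of the counts left after background subtraction, and not that of the background. No test was run, since each condition was measured once.

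The members and lists were chosen with earlier results of these data known. The rule for named miRNAs was the members, other miRNAs of the same hairpins or seed, the 3 miRNAs nearest in pattern and the neighbours by wild type count, of which at most 2 identifiers are printed. Lists of let-7, MG and other cell type miRNAs could not be matched to rows without names and are not reported, nor was their planned rescaling run. Where miR-720 was to be left out of the total, the most abundant row after LD was left out. Symbols of the 4 housekeeping mRNAs and miRNA sequences came from RefSeq (GRCm38.p6). The alternatives were 11 scalings (among them the counts before scaling), 20 counts added or subtracted before scaling, other filters, a 1.5-fold threshold and a pseudocount of 10. Subtraction of the highest of the 8 lower ERCC rows was added after seeing the data. The software was Python 3.11.15 with Biopython 1.88, scipy 1.17.1, numpy 2.4.6, matplotlib 3.10.9 and pandas 2.3.3.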

Additional observations from a re-analysis of the deposited data

How the results depend on the processing

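No paired analysis was possible because there was only 1 sample for each condition. The cause was not tested for any of the changes below. The ratio of miR-181a after LD to wild type, 0.409 in the authors' scaling, was 0.684 with the same total miRNA count and reversed to 1.05 without the most abundant LD row in the total; it was 0.535 with the geometric mean of 100 miRNAs, 0.724 with the median of ratios, 0.346, 0.860, 0.239 and 0.393 with Actb, Gapdh, Rpl19 and B2m alone, 0.232 before scaling, 0.535 with the nmiR rows and 0.205 with the ERCC rows. In Dicer-cKO glia, in the same order, it was 0.170 in the authors' scaling and then 0.681, 0.700, 0.349, 0.330, 0.162, 0.218, 0.180, 0.131, 0.0444, 0.0325 and 0.0313. LD over Dicer-cKO was 2.41 and then 1.004, 1.502, 1.53, 2.19, 2.14, 3.94, 1.33, 2.99, 5.22, 16.5 and 6.54. Scaled to the same total, the level of miR-181a was 33400 after LD and 33256 in Dicer-cKO glia. Background settings moved these 3 ratios of miR-181a by less than counting error.

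In Dicer-cKO glia miR-181c reversed to 1.90-fold and 1.95-fold of wild type with the same total, with and without the most abundant LD row, and miR-181b to 1.24-fold and 1.27-fold, and to 1.003-fold when 20 counts were added back. With the highest of the 8 lower ERCC rows subtracted, miR-181c was at 0.158 of wild type in Dicer-cKO glia and at 0.239 after LD, and the ratio of miR-181c to miR-181a changed by 0.587 from wild type to LD, by 0.950 (reversed) from wild type to Dicer-cKO glia and was 0.618 for LD over Dicer-cKO. With 20 further counts subtracted it rose 1.90-fold in Dicer-cKO glia. miR-181b had no counts left after LD and in Dicer-cKO glia under either subtraction.

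The share of miRNAs at least 2-fold lower in Dicer-cKO glia was 30.4% without a filter on low values. Rows at the lowest value of both samples, 1 in wild type and 4 in Dicer-cKO glia, cannot come out lower there. This limit also holds for the unfiltered 10.3% below. The share of miRNAs with a lower change than miR-181a was 53.1% after LD at a mean of at least 10 counts, compared with 32.0%, and 10.3% in Dicer-cKO glia without a filter, compared with 17.5%. With the ERCC row subtracted the latter was 46.6%.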
